A study of Mus musculus with 10 samples.

Results

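The DYRK and CLK kinases were examined in the hippocampus of Ts65Dn mice, in which 1 of their 9 genes, Dyrk1a, is present in 3 copies and the other 8 in 2. The members were chosen by gene symbol, Dyrk1a, Dyrk1b, Dyrk2, Dyrk3 and Dyrk4 for the DYRK kinases and Clk1, Clk2, Clk3 and Clk4 for the CLK kinases. They are 9 genes, set against 19936 genes with a row of their own on the array. All 9 were measured, 8 of them by a row annotated to that gene alone. The only row for Clk2 is also annotated to Gm45927, a read-through transcript that joins Clk2 to the neighbouring Scamp3, so it is called the Clk2 row and cannot be told apart between the 2 genes. Dyrk1a had a second row, and the row with the higher mean signal was used throughout.

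The Ts65Dn mouse, used as a model of Down syndrome, has a small additional chromosome. It carries a part of mouse chromosome 16 (Mmu16), homologous to the human chromosome that is trisomic in Down syndrome, and the part of mouse chromosome 17 next to the centromere, which is not. Hippocampal RNA of 5 Ts65Dn males was compared with that of 5 littermate control males that lack the extra chromosome, all aged 16 weeks and all on the F1 hybrid B6C3B background. Left and right hippocampus of a mouse went into 1 RNA sample and 1 Affymetrix Mouse Gene 1.0 ST array, so a value is the level in the whole tissue, and fewer cells of a type cannot be told apart from less RNA per cell. Values are log2 signals, so that a difference of 1 is a doubling, and each row has its own probes, so signals were compared between mice and never between genes. A row was called higher or lower when its adjusted p from limma was under 0.05, with adjustment over all 23410 rows that carry a gene symbol.

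DYRK kinases (dual-specificity tyrosine-phosphorylation-regulated kinases) phosphorylate a tyrosine in their own activation loop as they are made, and afterwards act on serine and threonine of other proteins. DYRK1A is known in the brain for its dose, since loss of 1 copy in people causes intellectual disability with a small head, and an extra copy is studied as a contributor to Down syndrome. The CLK kinases belong to the same branch of the kinase tree (CMGC) and sit in the nucleus, where they phosphorylate SR proteins, the serine and arginine rich factors that choose splice sites. CLK1 and CLK4 also act on the splicing of their own transcripts.

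The promoters of Dyrk1a, Clk2, Clk3 and Clk4 are shown because Dyrk1a was the member that rose, and because Clk2, Clk3 and Clk4 are the CLK genes with an entry, whose pairwise correlations between mice are given further on. Each covers 250 bases before and 50 bases after an annotated transcript start, is taken from RefSeq on the GRCm38.p6 build, and is written 5′ to 3′ on the strand of the gene. Capitals mark matches on either strand to 4 motifs, the GC box (GGGCGG), the core of the cAMP response element (CRE core, TGACG), the CCAAT box (CCAAT) and the E box (CACGTG). For Dyrk1a, which has 3 entries of which the most upstream was used, and for Clk3 the annotated start lies inside the gene. Of the 9 members, 8 had an entry, and Clk1 had none.
Dyrk1a (chr16:94569956-94570255, plus strand): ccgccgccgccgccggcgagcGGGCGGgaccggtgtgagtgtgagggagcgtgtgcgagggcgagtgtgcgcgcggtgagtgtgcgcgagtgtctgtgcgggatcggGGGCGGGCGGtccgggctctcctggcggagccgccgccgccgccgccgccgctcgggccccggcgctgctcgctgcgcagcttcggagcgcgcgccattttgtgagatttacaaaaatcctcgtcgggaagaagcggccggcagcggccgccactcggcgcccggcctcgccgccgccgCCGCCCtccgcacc
Clk2 (chr3:89164545-89164844, plus strand): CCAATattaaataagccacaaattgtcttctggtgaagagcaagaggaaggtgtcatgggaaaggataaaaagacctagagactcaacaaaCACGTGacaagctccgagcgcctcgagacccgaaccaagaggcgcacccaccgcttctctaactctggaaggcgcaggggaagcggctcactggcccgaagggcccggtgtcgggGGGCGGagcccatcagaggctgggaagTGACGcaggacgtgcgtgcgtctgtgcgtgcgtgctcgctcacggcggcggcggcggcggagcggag
Clk3 (chr9:57765065-57765364, minus strand): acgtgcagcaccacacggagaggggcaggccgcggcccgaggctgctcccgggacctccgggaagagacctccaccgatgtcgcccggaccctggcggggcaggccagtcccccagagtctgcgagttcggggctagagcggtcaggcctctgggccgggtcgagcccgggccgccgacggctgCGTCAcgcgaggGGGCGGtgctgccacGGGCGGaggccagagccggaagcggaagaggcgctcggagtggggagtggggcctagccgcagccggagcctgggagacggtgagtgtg
Clk4 (chr11:51262864-51263163, plus strand): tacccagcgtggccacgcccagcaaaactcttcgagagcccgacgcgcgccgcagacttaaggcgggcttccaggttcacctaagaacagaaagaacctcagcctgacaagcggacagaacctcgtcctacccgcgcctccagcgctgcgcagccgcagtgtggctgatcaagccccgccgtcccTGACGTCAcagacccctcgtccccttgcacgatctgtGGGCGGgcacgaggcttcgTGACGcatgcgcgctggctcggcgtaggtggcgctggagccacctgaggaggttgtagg
The Dyrk1a window had 77.0% G and C, against a median of 52.7% over 32851 promoters, and held 4 GC boxes, 2 of which overlap. Its other 3 motif counts were 0. The Clk2 window held 1 match to each of the 4 motifs, the Clk3 window 2 GC boxes and 1 CRE core, and the Clk4 window 1 GC box and 3 CRE cores, of which 2 overlap in the palindrome TGACGTCA. A GC box was found in 35.7% of all promoters, a CRE core in 20.8%, a CCAAT box in 37.4% and an E box in 7.15%. The CRE core was the motif that these 3 CLK windows and not the Dyrk1a window held. A match describes the letters and was not tested as a binding site.

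Dyrk1a was the only one of the 9 members that was called, and it was higher in Ts65Dn hippocampi. Over all 23410 rows 73 (0.312%) were called higher and 1 (0.00427%) lower. None of the 8 members in 2 copies was called in either direction, and 1 of them, Dyrk1b, was at an unadjusted p under 0.05. At that level 740 (3.16%) of all rows differed, 406 (1.73%) with higher and 334 (1.43%) with lower values in Ts65Dn mice. The genotypes did not overlap for 2 of the 9 members, Dyrk1a and Dyrk1b, and for 207 (0.884%) of all rows. Dyrk1b, the member closest to Dyrk1a in sequence, had lower values in every Ts65Dn mouse than in any control mouse, with a difference that did not pass the adjustment.

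**Figure D1:**
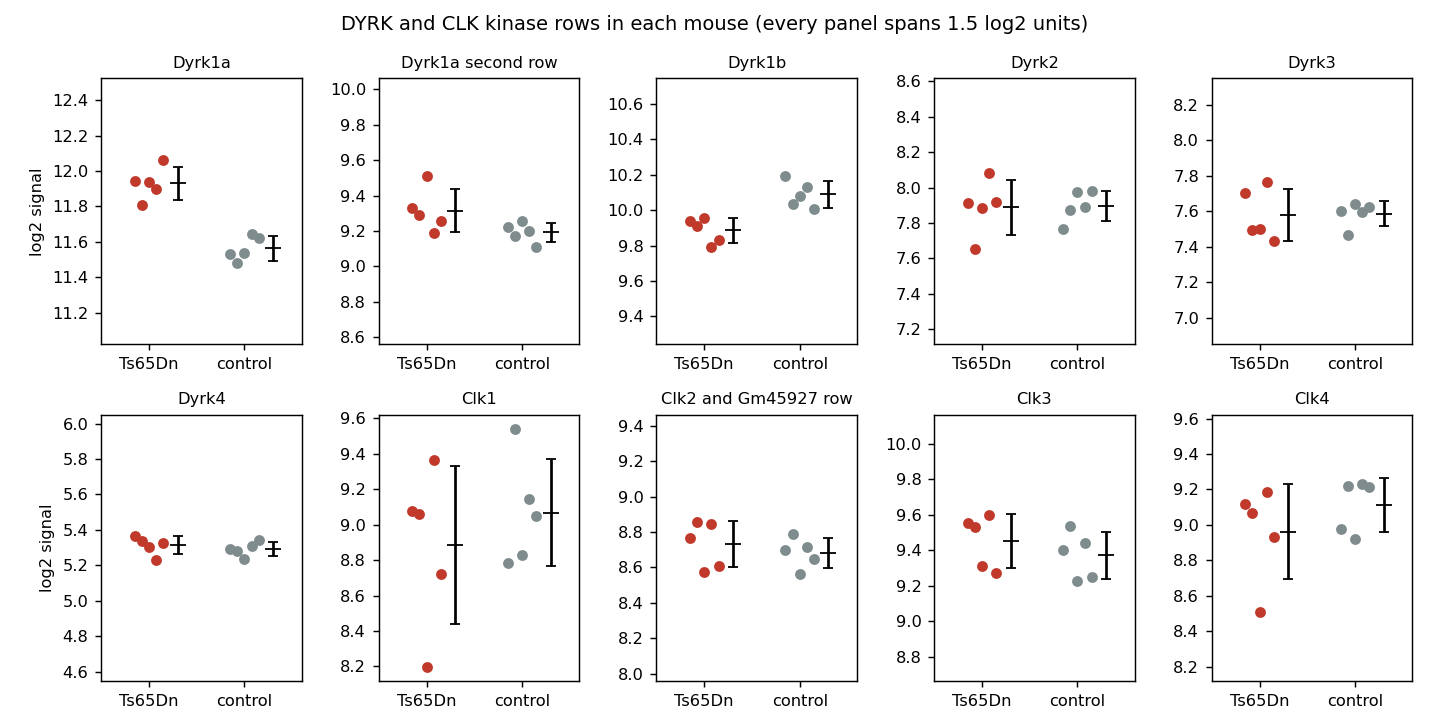
Log2 signal (vertical axis) of each member row in the 5 Ts65Dn mice (red, left) and the 5 control mice (grey, right), with points in the order of the replicate number and the mean ± SD beside them. Every panel spans the same number of log2 units, so distances can be compared. The genotypes are apart for Dyrk1a, where Ts65Dn is higher, and for Dyrk1b, where Ts65Dn is lower, and Clk1 and Clk4 spread the most between mice.

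Dyrk1a encodes the DYRK kinase of the brain that primes substrates for other kinases and acts on splicing, on endocytic proteins and on cell cycle exit. Its gene lies on Mmu16 (chr16:94569947-94695519, GRCm38). The log2 signal of Dyrk1a was 11.94, 11.81, 11.94, 11.90 and 12.06 in the 5 Ts65Dn mice, against 11.53, 11.48, 11.53, 11.64 and 11.62 in the 5 control mice. The lowest Ts65Dn mouse lay above the highest control mouse, a separation found for 135 (0.577%) of all rows in this direction. The signal of Dyrk1a rose by 0.37 ± 0.05 (log2, SE, n = 5 per group), which is 1.29-fold with a 95% interval of 1.19 to 1.39 (limma, adjusted p = 0.00876). The exact permutation p was 0.00794, the smallest that 252 allocations of the mice allow. The ratio of 3 copies to 2 is 1.5, or 0.58 on the log2 scale, and lies above that interval, although summarised array signals can understate ratios.

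The second Dyrk1a row gave a smaller difference. Log2 signals of this row were 9.33, 9.29, 9.51, 9.19 and 9.26 in Ts65Dn mice, against 9.23, 9.17, 9.25, 9.20 and 9.11 in control mice. The genotypes overlapped, with 3 control mice above the lowest Ts65Dn mouse, and the difference was 0.12 ± 0.06 (log2, SE, adjusted p = 1.00 in limma). The 95% interval of that difference ran from -0.0027 to 0.25 and did not reach the point estimate of the row used. Where on the gene the probes of either row lie was not used here. With the mean of both rows in place of the brighter one, the difference of Dyrk1a was 0.24 (adjusted p = 0.0363).

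Dyrk1b encodes the closest relative of DYRK1A, a kinase known from muscle differentiation and from cells that rest outside the cell cycle. The log2 signal of Dyrk1b was 9.94, 9.91, 9.95, 9.79 and 9.83 in Ts65Dn mice, against 10.19, 10.03, 10.08, 10.13 and 10.01 in control mice. All Ts65Dn mice were below all control mice, which held for 72 (0.308%) of all rows. The difference was -0.20 ± 0.05 (log2, SE, n = 5 per group), 0.869-fold with a 95% interval of 0.808 to 0.934, at an unadjusted limma p of 0.00125 and an adjusted p of 0.26. Between genotypes Dyrk1b therefore did not pass the threshold over all rows. A method that ranks fold changes over the 25 pairs of a Ts65Dn and a control array, of the kind the study used, called Dyrk1b lower and Dyrk1a higher, 2 of 9 members, as well as the second Dyrk1a row higher. It called 1223 (5.22%) of all rows, 657 (2.81%) higher and 566 (2.42%) lower.

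The other DYRK kinases are class II members. Dyrk2 encodes a kinase that also serves as the scaffold of a ubiquitin ligase. Its log2 signals were 7.91, 7.65, 7.88, 8.08 and 7.92 in Ts65Dn mice, against 7.77, 7.87, 7.97, 7.89 and 7.98 in control mice. The genotypes overlapped, with a difference of -0.0066 ± 0.07 (log2, SE).

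Dyrk3 encodes a kinase that dissolves stress granules and other condensates of cytoplasm and nucleus. In Ts65Dn mice the log2 signals were 7.70, 7.50, 7.50, 7.77 and 7.43, against 7.60, 7.47, 7.64, 7.60 and 7.62 in control mice. Both the highest and the lowest mouse were Ts65Dn, and the difference was -0.0074 ± 0.07 (log2, SE). The sign of the differences of Dyrk2 and Dyrk3 turned under median centring of the arrays and when single mice were left out.

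Dyrk4, known mainly from testis, was dim. Its log2 signals were 5.36, 5.34, 5.31, 5.23 and 5.33 in Ts65Dn mice, against 5.29, 5.28, 5.24, 5.31 and 5.34 in control mice. The mean signal of its row was at the 17.9th percentile of all rows, where a ratio is the least certain. Its difference was 0.02 ± 0.04 (log2, SE). The adjusted p of Dyrk2, Dyrk3 and Dyrk4 was 1.00 in limma.

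None of the 4 CLK rows was called, and the intervals of Clk1 and Clk4 were the widest among the members. Clk1 encodes the founding member of the family. The log2 signal of Clk1 was 9.08, 9.06, 8.20, 9.36 and 8.72 in Ts65Dn mice, against 8.79, 9.54, 8.83, 9.14 and 9.05 in control mice. The lowest value was that of Ts65Dn replicate 3 and the highest that of control replicate 2, so that the spread within a genotype exceeded the difference of -0.18 ± 0.20 (log2, SE, 95% interval -0.63 to 0.27). Without Ts65Dn replicate 3 the difference of Clk1 was -0.01.

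Clk4, the closest relative of Clk1, showed the same mouse apart. The log2 signals of Clk4 were 9.12, 9.07, 8.51, 9.19 and 8.93 in Ts65Dn mice, against 8.98, 9.22, 8.92, 9.23 and 9.21 in control mice. Ts65Dn replicate 3 was again the lowest, and the difference was -0.15 ± 0.12 (log2, SE), or -0.04 without that mouse.

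The Clk2 row and Clk3 varied less. The Clk2 row had log2 signals of 8.77, 8.86, 8.58, 8.85 and 8.61 in Ts65Dn mice, against 8.70, 8.79, 8.56, 8.72 and 8.65 in control mice, a difference of 0.05 ± 0.07 (log2, SE). CLK2 is known in liver and muscle metabolism besides splicing. Clk3 had log2 signals of 9.56, 9.53, 9.31, 9.60 and 9.27 in Ts65Dn mice, against 9.40, 9.54, 9.23, 9.44 and 9.25 in control mice, a difference of 0.08 ± 0.08 (log2, SE). In both rows the genotypes overlapped, and the adjusted p of all 4 CLK rows was 1.00 in limma. An unchanged level is not shown by this, since the interval of Clk1 alone spans 0.90 on the log2 scale.

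**Figure D2:**
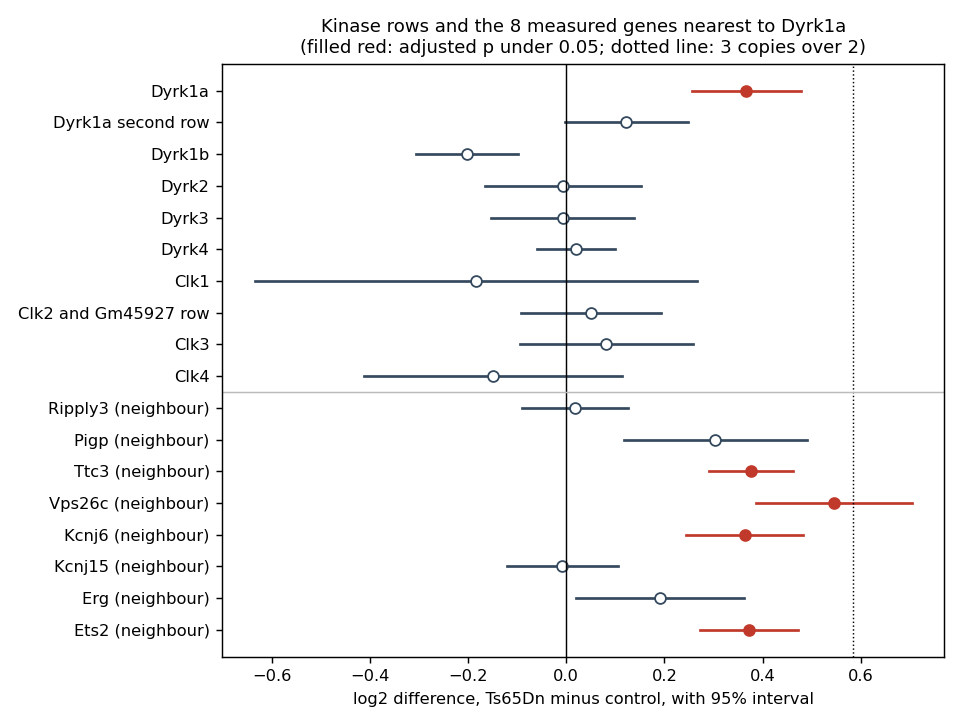
Log2 difference, Ts65Dn minus control (horizontal axis), of the member rows above the grey line and of the 4 measured genes on either side of Dyrk1a on Mmu16 below it, each with its 95% interval from limma. Filled red points have an adjusted p under 0.05, and the dotted line at 0.58 is the ratio of 3 copies to 2. Dyrk1a lies beside Ttc3, Kcnj6 and Ets2, while the intervals of all other member rows apart from Dyrk1b include 0.

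The gap between Dyrk1a and each relative was then compared within mice, so that what shifts a whole array alike drops out. For each of 8 relatives the log2 signal of the relative was subtracted from that of Dyrk1a in every mouse, and the genotypes were compared by an exact permutation test with adjustment over the 8 comparisons. The gap was larger in Ts65Dn mice for 6 of 8 relatives at an adjusted p under 0.05. For Dyrk1b it averaged 2.04 ± 0.13 in Ts65Dn mice and 1.47 ± 0.10 in control mice (log2, SD, n = 5 per group), a difference of 0.57 with a 95% interval of 0.40 to 0.74. Clk4 followed with a difference of 0.52 (0.17 to 0.86). Dyrk3 gave 0.37 (0.17 to 0.58), Dyrk2 0.37 (0.21 to 0.54) and Dyrk4 0.35 (0.23 to 0.46). In these 5 comparisons no Ts65Dn mouse overlapped with a control mouse, and each had an exact permutation p of 0.00794 and an adjusted p of 0.0127.

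For the Clk2 row the gap to Dyrk1a differed by 0.32 (95% interval 0.07 to 0.57), with overlapping genotypes and an exact permutation p of 0.0238, 0.0317 after adjustment. That call was lost without control replicate 1 (adjusted p = 0.0726, exact permutation test), replicate 2 (0.0741) or replicate 4 (0.0635). Clk1 gave 0.55 (-0.05 to 1.15) and Clk3 0.29 (-0.0035 to 0.57), both with an exact permutation p of 0.0556, so the gap of Dyrk1a to these 2 rows was not shown to differ between genotypes. Clk1 passed without Ts65Dn replicate 4, with a difference of 0.68 (adjusted p = 0.0106, exact permutation test), and Clk3 passed without Ts65Dn replicate 2 (0.34, adjusted p = 0.0454) or replicate 4 (0.33, adjusted p = 0.0476). The rise of Dyrk1a enters all 8 of these differences, so they are independent neither of each other nor of the call of Dyrk1a. Dyrk2, Dyrk3 and Dyrk4 themselves differed by -0.0066, -0.0074 and 0.02 (log2). Their gaps therefore largely restate the Dyrk1a rise of 0.37.

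Dyrk1a was also set among the other genes in 3 copies. On Mmu16 from Mrpl39 to Zbtb21, 127 genes were measured, and 42 of them, Dyrk1a included, were called higher and 0 lower. Among these 42, which were kept because they passed the call, fold changes ran from 1.18 to 1.57 with a median of 1.33. Of the 42, 30 lay above Dyrk1a and 11 below it. Over all 127 measured genes, called or not, the median fold change was 1.15, and Dyrk1a was at rank 42 of 127. These 127 include a block of dim genes from Cldn17 to Krtap11-1, with fold changes from 0.94 to 1.04. Mean log2 signals in this block ran from 4.20 to 7.19, below the array medians of 7.38 to 7.41. Such dim rows lower the median and raise the rank, so neither places Dyrk1a among the genes with clear signal. Next to it, Ttc3, a ubiquitin ligase, was 1.30-fold higher (adjusted p = 0.00184), and Vps26c, a subunit of the retriever complex that recycles membrane proteins, was 1.46-fold higher (adjusted p = 0.00628). Beyond it, Kcnj6, which encodes the GIRK2 potassium channel, was 1.29-fold higher (adjusted p = 0.0153) and the transcription factor Ets2 was 1.29-fold higher (adjusted p = 0.00364), all in limma. Kcnj6 lost its call without control replicate 1, 2 or 3, with adjusted p-values of 0.0509, 0.0605 and 0.0583.

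The remaining 4 neighbours were not called. Erg, a transcription factor of endothelium, was at 1.14-fold, Pigp, an enzyme of the GPI anchor, at 1.23-fold (adjusted p = 0.62), Ripply3 at 1.01-fold and the potassium channel gene Kcnj15 at 0.995-fold. Ripply3 and Kcnj15 had mean log2 signals of 6.55 and 5.91, below the array medians of 7.38 to 7.41. The genes beside Dyrk1a thus had fold changes on both sides of its 1.29, with Ttc3, Kcnj6 and Ets2 the closest to it.

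The pathway around the kinases was followed through 5 lists, which held 82 measured genes other than the members. Of the 79 genes in 2 copies 0 were called, with 3 at an unadjusted p under 0.05 and 4 by the rank method, while all 3 genes in 3 copies were called higher. The background over all rows was 74 calls (0.316%) in limma, 740 rows (3.16%) at an unadjusted limma p under 0.05, and 1223 (5.22%) by the rank method. The median log2 difference of the 79 genes was 0.00039, against -0.0028 over all 19936 genes.

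The 3 that rose belong to the partners and substrates of DYRK1A and lie, like Dyrk1a, on the trisomic part of Mmu16. Rcan1 encodes an inhibitor of calcineurin that DYRK1A phosphorylates, and both act on NFAT transcription factors. Its log2 signals were 9.55, 9.65, 9.66, 9.60 and 9.58 in Ts65Dn mice, against 9.25, 9.17, 9.27, 9.04 and 9.003 in control mice, a rise of 0.46 ± 0.06 (SE, adjusted p = 0.0033 in limma). Synj1 encodes synaptojanin, the phosphatase that uncoats synaptic vesicles. In Ts65Dn mice the log2 signals of Synj1 were 11.84, 11.78, 11.92, 11.83 and 11.91, against 11.41, 11.40, 11.47, 11.48 and 11.44 in control mice, a rise of 0.42 ± 0.04 (SE, adjusted p = 0.000899 in limma). App encodes the amyloid precursor protein, and rose by 0.27 ± 0.04 (log2, SE, adjusted p = 0.0161 in limma). The genotypes did not overlap for any of the 3, and App lost its call without Ts65Dn replicate 2, 3 or 4 (adjusted p = 0.0502, 0.0508 and 0.0549).

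Of the other 30 measured partners and substrates of DYRK1A, all in 2 copies, 0 were called, and 3 were at an unadjusted p under 0.05, all with lower values in Ts65Dn. Over all rows 334 (1.43%) were lower at that level in limma. Hap1, the huntingtin-associated protein that binds DYRK1A, had log2 signals of 9.40, 9.57, 9.25, 9.34 and 9.17 in Ts65Dn mice, against 9.71, 9.92, 9.71, 9.77 and 9.48 in control mice. Only Ts65Dn replicate 2 reached above the lowest control mouse, and the difference was -0.37 ± 0.09 (log2, SE, adjusted p = 0.264 in limma). Gli1, a transcription factor of the hedgehog pathway, differed by -0.12 and Dcaf7, the adaptor that holds DYRK1A in its complexes, by -0.11 ± 0.05 (log2, adjusted p = 1.00 for both in limma). The rank method called Hap1, Gli1 and Dcaf7 lower, and 566 (2.42%) of all rows. The list as a whole had 16 of 33 positive differences and a median of -0.0031.

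In the other lists 0 genes were called. The DREAM complex holds cells out of the cycle, and DYRK1A starts its assembly by phosphorylating Lin52. Of 16 measured genes in this list 10 had positive differences, with a median of 0.01, and the smallest p-values belonged to Lin54 (0.11), Tfdp1 (0.07) and Ccnd2 (-0.10, log2 differences), of which the rank method called Lin54 higher. The list of SR splicing factors and cyclin L genes also holds the spliceosome subunit Sf3b1, and was not split by the kinase that acts on each. For its 16 measured genes the median was -0.0092, with Sf3b1 at -0.06, Srsf3 at 0.08 and Srsf2 at -0.07. All log2 differences of this list lay between -0.08 and 0.08. The 8 related CMGC kinases, the HIPK and SRPK families and Prpf4b, had a median of 0.02, with Srpk3 at 0.05, Hipk1 at 0.03 and Prpf4b at 0.04. The 9 measured genes around DYRK2 and DYRK3 had a median of 0.03, with Jun, a DYRK2 substrate, at 0.10, the proteasome ATPase Psmc3 at 0.06 and Akt1s1, through which DYRK3 acts on mTORC1 signalling, at 0.04. Psmc3 was kept as listed, although the proteasome subunit known as a DYRK2 substrate is encoded by Psmc4. Srsf2 and Prpf4b turned sign when 1 Ts65Dn mouse was left out, replicate 3 for Srsf2 (0.0020) and replicate 4 for Prpf4b (-0.02).

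**Figure D3:**
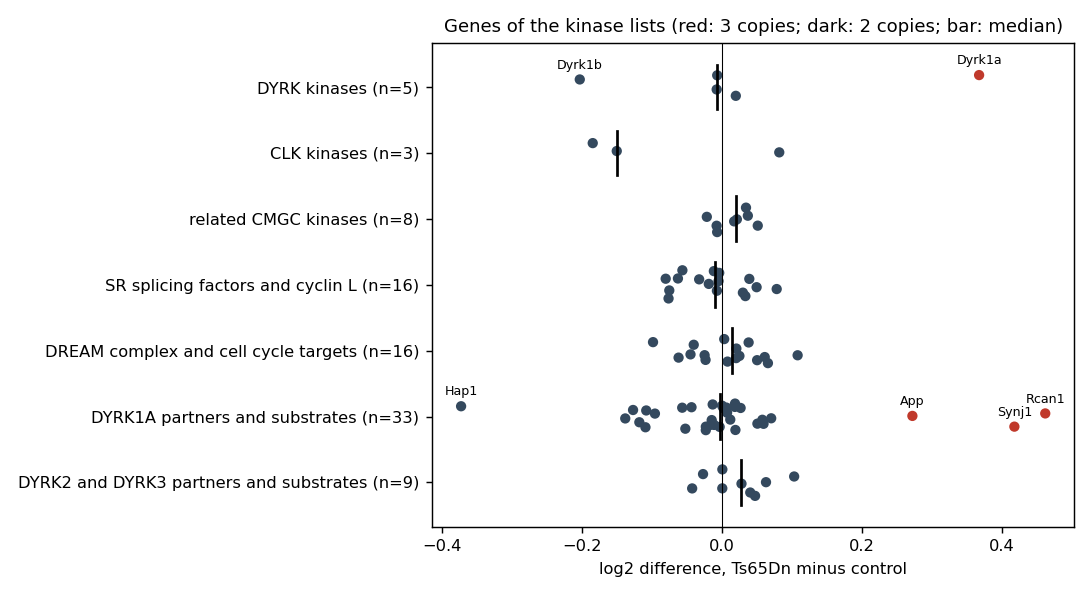
Log2 difference, Ts65Dn minus control (horizontal axis), of every measured gene with a row of its own in 7 lists, with genes in 3 copies in red, genes in 2 copies dark and the list median as a bar. Vertical position within a list has no meaning. The 4 red points, Dyrk1a, Rcan1, Synj1 and App, lie at 0.27 or above, and of the dark points Hap1 at -0.37 and Dyrk1b at -0.20 lie farthest from 0.

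Between mice of the same genotype Clk1 and Clk4 varied the most of the members. The SD within genotype was 0.381 for Clk1 and 0.219 for Clk4, at percentiles 99.2 and 95.7 of all rows, and 0.142 for Clk3 and 0.111 for the Clk2 row. Among DYRK kinases it was 0.125 for Dyrk2, 0.114 for Dyrk3, 0.0802 for Dyrk1a, 0.0726 for Dyrk1b and 0.0451 for the dim Dyrk4, against a median of 0.0896 over all rows. The log2 difference of Dyrk1a, 0.37, is smaller than 1 SD of Clk1.

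The CLK rows were positively correlated with each other, in 3 of their 6 pairs with an adjusted p under 0.05. All 36 pairs of members were correlated over the 10 mice, on deviations from the mean of the genotype, with permutations of mice within genotype and adjustment over the 36 pairs. The permutations treat the mice of a genotype as independent. Same-numbered mice of both genotypes correlated over all rows at 0.51, 0.27, 0.32, 0.03 and 0.46, for replicates 1 to 5. The permutation p-values leave this out and may therefore be too small. The pair of Clk1 and Clk4 had Pearson r = 0.92 (permutation p = 0.00094, adjusted p = 0.025) and Spearman rho = 0.93 (permutation p = 0.00085, adjusted p = 0.0306). The Clk2 row and Clk3 had r = 0.93 (permutation p = 0.00139, adjusted p = 0.025) and rho = 0.90 (permutation p = 0.00407, adjusted p = 0.0538). Clk1 and the Clk2 row had r = 0.85 (permutation p = 0.00352, adjusted p = 0.0422) and rho = 0.84 (permutation p = 0.00689, adjusted p = 0.062). These were the 3 pairs with an adjusted p under 0.05 for r, and only the first of them was also under it for rho.

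The other 3 CLK pairs had r between 0.67 and 0.80 with adjusted permutation p-values from 0.0632 to 0.229. Without the 2 mice farthest from the median, r was 0.81 for Clk1 and Clk4, 0.90 for the Clk2 row and Clk3, and 0.75 for Clk1 and the Clk2 row. Leaving out single mice kept r between 0.84 and 0.97 for Clk1 and Clk4 and between 0.92 and 0.96 for the Clk2 row and Clk3, but with 9 mice the adjusted exact permutation p of Clk1 and Clk4 ran from 0.0313 to 0.156 and 6 of 10 omissions lost its call. The Clk2 row and Clk3 lost theirs in 7 of 10 (adjusted p up to 0.144), and Clk1 and the Clk2 row in 8 of 10, with r down to 0.78 and an adjusted exact permutation p up to 0.203. Among the 10 pairs of DYRK kinases r ran from -0.60 for Dyrk1b and Dyrk2 to 0.55 for Dyrk2 and Dyrk3, with adjusted permutation p-values of 0.411 or more. Dyrk1a and the CLK rows had r from -0.57 to -0.07 with adjusted permutation p-values of 0.51 or more.

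**Figure D4:**
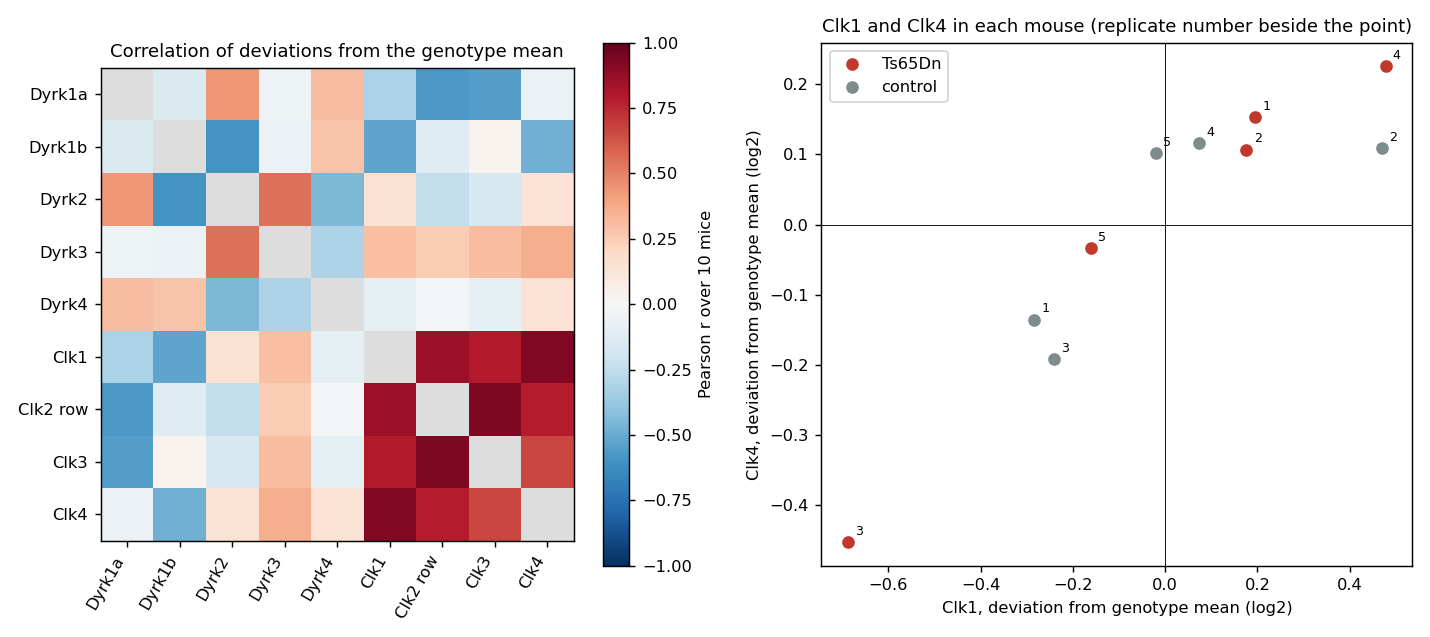
Left, Pearson r (colour, from -1 to 1) between member rows over the 10 mice on deviations from the genotype mean. Right, deviation of Clk4 (vertical axis, log2) against that of Clk1 (horizontal axis, log2) in each mouse, Ts65Dn red and control grey, with the replicate number beside the point. The 4 CLK rows form a block of r from 0.67 to 0.93, and Ts65Dn replicate 3 lies at the low end of Clk1 and Clk4.

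Some of the SR splicing factors and cyclin L genes varied like Clk1 from mouse to mouse, and others only weakly so. This comparison was chosen after the values were seen and carries no test. All 16 measured genes of the list had a positive r with Clk1, against 41.6% of 19935 genes, and 6 of them (37.5%) had r above 0.8, against 1.18%. Without the 2 mice in which Clk1 was farthest from its mean, 15 of 16 were positive, against 46.7% of all genes, and 3 (Srsf6, Srsf1 and Ccnl2) were above 0.8, against 0.958%. The median r was 0.66 for the list, or 0.59 without those 2 mice, against -0.12 for all genes, or -0.03 without them. Srsf6, an SR protein, had r = 0.94 and log2 signals of 9.19, 9.13, 8.82, 9.29 and 8.88 in Ts65Dn mice, against 8.93, 9.17, 8.91, 9.04 and 9.09 in control mice. The mouse with the lowest Srsf6 was Ts65Dn replicate 3, as for Clk1. Srsf1, the SR protein first known as ASF, had r = 0.91, cyclin L1 (Ccnl1) 0.87, cyclin L2 (Ccnl2) 0.84, Srsf10 0.84 and the spliceosome subunit Sf3b1 0.83. At the low end were Srsf12 (0.20), Tra2b (0.23), Rnps1 (0.34), Srsf9 (0.38) and Srsf3 (0.39), and Srsf9 had -0.12 without those 2 mice. The points of these correlations share the 10 arrays.

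**Figure D5:**
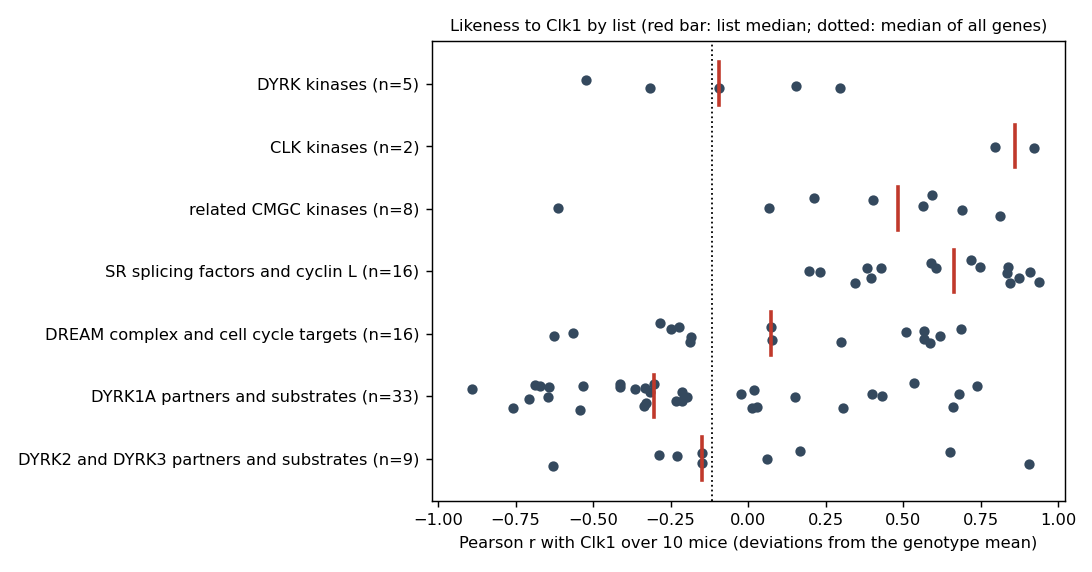
Pearson r with Clk1 over the 10 mice (horizontal axis, deviations from the genotype mean) of every measured gene in 7 lists, with the list median as a red bar and the median of all genes (-0.12) dotted. All points of the SR splicing factors and cyclin L genes lie above 0, with a median of 0.66, whereas the partners and substrates of DYRK1A have a median of -0.30, or -0.06 without the 2 mice in which Clk1 was farthest from its mean.

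Some members correlated with the main axes of variation between mice, and others did not. Of the variance of the deviations over all genes, the first principal component took 28.8% and the second 20.9%, each signed so that Clk1 is positive. Over the 10 mice Dyrk1a had r = -0.88 with the second component, Clk3 0.79 and the Clk2 row 0.75. Dyrk1b had r = -0.86 with the first, Clk1 0.66 and Clk4 0.66. Dyrk3 had 0.15 with the first and 0.23 with the second, Dyrk4 -0.16 and -0.19, and Dyrk2 0.28 and -0.47. Scores of the second component were 3.5, 9.8, -3.8, 4.3 and -13.8 in Ts65Dn replicates 1 to 5. In control replicates 1 to 5 they were 7.8, 5.8, -1.8, -2.8 and -9.0, so that replicate 5 was the lowest in both genotypes. Whether the replicate number marks something that these mice share was not tested. Scores of the first component were -7.6, 6.3, -12.6, 12.8 and 1.1 in Ts65Dn replicates 1 to 5. They were -8.0, 5.0, -3.5, -6.0 and 12.5 in control replicates 1 to 5. Markers of choroid plexus, a tissue that adjoins the hippocampus, had means of 7.56, 10.04, 7.36, 9.40 and 8.50 in these Ts65Dn mice. In these control mice the means were 8.20, 8.94, 7.54, 7.47 and 9.79. The components hold many other genes, so the correlations are descriptions, and what sets the components was not tested.

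The genes most like Dyrk1a between mice of a genotype were taken as those with the highest r over the 10 mice. They were Kcna1, a potassium channel of axons (r = 0.98), Megf9 (0.98), Fbxo31, an F-box protein of a ubiquitin ligase (0.98), Arhgef17 (0.97) and Alg1, an enzyme of N-glycosylation (0.97). The most opposite were Kank1 (-0.97) and Trmt112 (-0.96), and 114 of 19935 genes had r beyond 0.9 in either direction. The log2 differences of these 7 genes between genotypes lay from -0.08 to 0.0050 with adjusted p = 1.00 in limma, and none of them was called.

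Markers of tissues and cell types were taken as list means, with no reference tissue beside them, so the tissue label was not tested. All 10 hippocampal neuron markers were measured, the lowest of them Dsp at a mean log2 signal of 8.97, and their mean signal lay from 10.29 to 10.61 in Ts65Dn mice and from 10.46 to 10.55 in control mice. The mean of 6 choroid plexus markers, a tissue that adjoins the hippocampus, lay from 7.36 to 10.04 in Ts65Dn mice and from 7.47 to 9.79 in control mice, so that these markers ranged widely within both genotypes. In the 9 marker lists 0 genes were called, and the list means differed between genotypes by -0.13 to 0.18 (log2). Clk1 had a positive r with all 6 choroid plexus markers, with a median of 0.47, or 0.23 without the 2 mice in which Clk1 was farthest from its mean. Their part in the spread of the CLK rows was not tested.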

How the data were processed

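Hippocampal RNA of 10 mice, 5 Ts65Dn and 5 littermate controls, was hybridised to 1 array for each mouse. The authors deposited log2 signals from RMA, which corrects background, equalises the distributions of the arrays and summarises the probes of a transcript cluster (a row). RMA, limma and mm10 are named, without versions, in the submitters' processing notes. For arrays, the number of mice limits the precision.

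Of 35556 rows, 23410 carried 1 or several gene symbols in the platform annotation and were tested, 1621 of them with several, and 12146 carried none and were not used. Single-symbol rows matched RefSeq genes of GRCm38 by gene number in 21698 cases and by accession in 3, and 88 had no match. The row with the highest mean stood for a gene, with 1001 genes having a choice. The array medians lay from 7.38 to 7.41, and no 2 arrays were identical. Each value column belonged to a mouse.

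Genotypes were compared two-sided by limma 3.58.1 (lmFit, then eBayes; R 4.3.3) on genotype alone, p-values were adjusted by Benjamini-Hochberg across the 23410 rows, and rows were called at 0.05. Single gaps between rows were compared by a two-sided exact permutation test over 252 allocations. Correlations used 100000 permutations within genotype. The script of the fit was tested on simulated data. The labels call the mice biological replicates and number them in both groups. The numbers were not taken as pairs, since nothing in the labels ties same-numbered mice to each other.

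The study's rank-based program was not used here. A rank method of that kind, with all 25 pairs and a 10% trim, was an alternative and calls about the same share of rows whatever the data. The other alternatives were the rows tested, 3 normalizations, 2 variance models, 2 thresholds, a replicate block, the mean of all rows of a gene and leaving out each mouse.

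The members and gene lists were chosen with earlier results of these data known. Named are all members, from each list the genes called and the 3 of the rest with the smallest p, the 4 measured genes on either side of Dyrk1a, and the 5 genes most and 2 least like Dyrk1a. Some listed genes were not analysed here. Plots were drawn with matplotlib 3.10.9.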

Additional observations from a re-analysis of the deposited data

Results flagged for a closer look

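Over the 10 member rows, 20 groups of 5 mice were searched for a single mouse far from the others. Dyrk3 in control replicate 2 stood apart at a log2 signal of 7.47, while the other 4 control mice lay between 7.60 and 7.64. Chance alone marks about 1 in 20 such groups, and 1 of 20 was marked here.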

How the results depend on the processing

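Dyrk1a kept its call in all 23 alternatives, with log2 differences from 0.24 to 0.40 and adjusted limma p-values from 0.00359 to 0.0363. Dyrk1b had adjusted p-values from 0.229 to 0.713 and was called only by the rank method. The rank method called 1223 rows, 2 of the 9 members, 1 of the 8 in 2 copies, 7 pathway genes and 68 genes of the Mmu16 segment, in place of 74, 1, 0, 3 and 42. A threshold of 0.01 gave 41 rows and 23 segment genes. The differences of Dyrk2 and Dyrk3 turned to 0.0067 and 0.0059 under median centring, and without single mice lay from -0.055 to 0.053 and from -0.054 to 0.029. Kcnj15 turned to 0.0048 with quantile normalization, 0.0055 with median centring and 0.0014 with cyclic loess, and without single mice lay from -0.033 to 0.027. Without single mice Ripply3 lay from -0.0084 to 0.047, Prpf4b from -0.018 to 0.062 and Srsf2 from -0.13 to 0.0020. The cause was not tested.

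With the replicate number as a block, limma called 76 rows, 1 member and 38 segment genes, and Hap1 (adjusted p = 0.0113) and Pigp (0.0397) passed. The deviations of same-numbered mice correlated at 0.51, 0.27, 0.32, 0.03 and 0.46, and 4 of the 5 numbers correlated best with their own. The gap of Dyrk1a to the other members, taken within such pairs, kept its size of 0.57 for Dyrk1b, 0.37 for Dyrk2, 0.37 for Dyrk3, 0.35 for Dyrk4, 0.32 for the Clk2 row and 0.52 for Clk4, but sign flips of 5 pairs allow no exact p under 0.0625, which is above the threshold. Leaving out single mice moved the gap from 0.38 to 0.68 for Clk1, from 0.25 to 0.38 for the Clk2 row and from 0.21 to 0.34 for Clk3.

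Leaving out single mice was added for the correlations after seeing the data and gave from 0 to 5 pairs of members under 0.05 in place of 3, with 0 in 6 of the 10 omissions. Without subtraction of the genotype mean 2 pairs passed, and Clk1 with the Clk2 row had r = 0.73 (adjusted permutation p = 0.235). Dim rows such as that of Dyrk4 limit what can be seen.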

Other observations

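Outside the splicing factors, single genes of the other lists followed Clk1 closely or opposed it over the 10 mice, a description chosen after the values were seen. Mdm2, the ubiquitin ligase of p53, had r = 0.91 with Clk1, and Srpk1, the cytoplasmic SR protein kinase, had r = 0.81. Of all genes 1.18% had r above 0.8. Without the 2 mice in which Clk1 was farthest from its mean, 0 of the 9 genes around DYRK2 and DYRK3, Mdm2 included, were above 0.8. Of the 8 related CMGC kinases 7 had a positive r, against 41.6% of all genes, and Hipk4 had -0.61. Without those 2 mice 6 of the 8 were positive, against 46.7% of all genes. Nfatc1 had r = -0.89 and Dnm1, the dynamin of synaptic vesicle recycling, -0.76. Both come from the 33 measured partners and substrates of DYRK1A, of which 11 had a positive r. The median of that list was -0.30, or -0.06 without those 2 mice, against -0.12 and -0.03 for all genes. How far either gene rests on those mice was not tested. The 5 oligodendrocyte markers all had a positive r with Clk1, with a median of 0.40, or 0.01 without the 2 mice in which Clk1 was farthest from its mean.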
